A study of Mus musculus with 8 samples.

Results

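The genes described here are 10 genes of the luminal layer of the mouse mammary gland: the keratins Krt8, Krt18, Krt19 and Krt7, and Elf5, Kit, Aldh1a3, Csn3, Ltf and Cd14, which mark luminal progenitors. They were picked by name out of the 54837 gene identifiers counted, and read in RNA of basal cells as a gauge of how much luminal RNA the basal sorts held. Each of 4 numbered runs gave 1 library of cells sorted in G1, the growth phase before DNA synthesis, and 1 of cells sorted in G0, a resting state. Both groups came from the mammary gland of untreated mice, with the strain given as C57BL/B6, so the phase is the 1 labelled difference between them. The sources used here do not give the age of the animals, the markers of the basal sort or the way the phases were told apart, nor whether a run pooled animals. Of the 10 genes, 9 passed the filter on low counts, and Elf5 did not.

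The mammary epithelium has an outer basal layer, rich in the keratins K5 and K14, and an inner luminal layer, rich in the simple keratins K8, K18, K19 and K7. Keratins work as pairs, a type II chain such as K8 or K7 with a type I chain such as K18 or K19. Part of the luminal layer is formed by progenitors of the milk-secreting alveolar cells, which depend on the transcription factor ELF5, carry the receptor KIT on their surface and make milk and defence proteins.

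The promoters of the keratin partners Krt8 and Krt18 are printed because their count ratio differed more between runs than between phases. Those of Krt7 and Ltf stand beside them as a second type II keratin and as the tested gene with the widest spread between runs. Each sequence runs 5′ to 3′ on the gene's strand, from 250 bases before to 50 after the start given by RefSeq on GRCm38.p6. Entries were found for 6 of the 10 genes. Capitals mark the letters TATAAA, the core of the TATA box, and GGGCGG, a GC box, on either strand.
Krt8, chr15:102004293-102004592, minus strand: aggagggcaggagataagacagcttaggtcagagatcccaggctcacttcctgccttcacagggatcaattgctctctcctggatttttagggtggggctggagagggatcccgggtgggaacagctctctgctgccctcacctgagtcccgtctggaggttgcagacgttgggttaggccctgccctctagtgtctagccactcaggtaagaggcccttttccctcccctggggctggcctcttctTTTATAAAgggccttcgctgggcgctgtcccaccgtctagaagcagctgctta
Krt18, chr15:102027966-102028265, plus strand: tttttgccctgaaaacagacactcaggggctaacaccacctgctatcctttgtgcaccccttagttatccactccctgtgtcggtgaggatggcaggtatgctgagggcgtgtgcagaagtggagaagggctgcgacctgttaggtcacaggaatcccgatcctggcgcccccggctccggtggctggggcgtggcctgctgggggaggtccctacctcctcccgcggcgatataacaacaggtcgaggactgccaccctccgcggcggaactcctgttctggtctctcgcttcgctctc
Krt7, chr15:101412153-101412452, plus strand: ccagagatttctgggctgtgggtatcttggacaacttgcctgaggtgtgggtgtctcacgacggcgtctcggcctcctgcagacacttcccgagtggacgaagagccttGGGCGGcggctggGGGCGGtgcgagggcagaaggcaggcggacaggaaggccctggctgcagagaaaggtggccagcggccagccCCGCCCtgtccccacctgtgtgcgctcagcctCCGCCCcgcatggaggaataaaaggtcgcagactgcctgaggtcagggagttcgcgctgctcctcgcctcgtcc
Ltf, chr9:111019042-111019341, plus strand: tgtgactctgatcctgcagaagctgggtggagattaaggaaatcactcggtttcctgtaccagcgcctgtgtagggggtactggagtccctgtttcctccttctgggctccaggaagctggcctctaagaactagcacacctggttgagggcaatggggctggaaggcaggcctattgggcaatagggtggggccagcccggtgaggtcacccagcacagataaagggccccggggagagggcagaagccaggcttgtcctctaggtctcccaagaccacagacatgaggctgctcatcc
The Krt8 window held TATAAA in 2 overlapping matches, 1 on each strand. They begin at positions -3 and -1 and so lie across the listed start, not upstream of it. The Krt7 window held GGGCGG at 4 places. Of the 32851 mouse windows of this length, 13.6% hold TATAAA and 35.7% hold GGGCGG, and neither was found in the windows of Krt18 and Ltf. The STAT-type motif TTCNNNGAA, present in 8.3% of windows on either strand, was found in none of the 4 printed.

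On GRCm38, Krt7 (ENSMUSG00000023039, from 101411043 to 101430313), Krt8 (ENSMUSG00000049382, from 101996698 to 102004482) and Krt18 (ENSMUSG00000023043, from 102028180 to 102032027) lie on chromosome 15. Krt18, although a type I gene, lies close to Krt8, while Krt19 (ENSMUSG00000020911) lies on chromosome 11 from 100140810 to 100148665. The Krt8 gene is overlapped on the opposite strand by the noncoding gene Gm36026, which had 6288 counts over the 8 libraries against 80141 for Krt8. How the counting treated strand is not stated, so reads of these genes may not be fully separated. The pseudogene Krt8-ps, whose reads could be exchanged with those of Krt8, carried 0.56% to 1.38% as many counts as Krt8.

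Libraries held 5868728 to 15014104 counts, on 20836 to 39094 genes. The highest number of genes was in the G0 library of run 4, where 8.13% of counts fell on a single predicted gene, Gm10800. Gm10800 took 1.71% of counts in the G1 library of run 4 and 1.19% in the G0 library of run 3, and under 0.02% in the others. Basal markers were high in both phases. Krt14 stood at 7627 to 9802 CPM (each count as its share of the library total, with TMM scaling) in G1 libraries and 6650.5 to 8818 CPM in G0 libraries, and the basal regulator Trp63 at 111.8 CPM in both phases.

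None of the luminal genes was called between the phases in the fits over all 8 libraries, and Csn3 was called in the blocked fit without run 3. The G1 and G0 libraries overlapped for all 10. Of the 9 tested, edgeR's quasi-likelihood test called 0 higher and 0 lower in G1 at a Benjamini-Hochberg adjusted p of 0.05, and 0 had an unadjusted p under 0.05. The same test called 0% of all 15192 tested genes higher and 0% lower, and 2.8% had an unadjusted p under 0.05. Limma-voom also called 0 members and 0% of all genes. DESeq2 called 0 members, with 0.066% of all genes higher and 0.158% lower. Blocking on the run, edgeR called 0 members, with 0.481% of all genes higher and 0.764% lower, and 3 members (Krt19, Krt7 and Cd14) had an unadjusted p under 0.05, which 12.3% of all genes had. The fit on phase alone leaves the pairing by run unused, and every tested member had a smaller SE with the block. Whether runs came from separate animals is not labelled, and the p-values reflect only how these libraries vary, which may be technical. With 1 library left out, 0 members were called in each of the 8 fits on phase alone, and the median log2 fold change of the members lay between -0.21 without the G1 library of run 3 and 0.71 without the G0 library of run 3. Without the G0 library of run 4 it was 0.02, with Krt8 at -0.03 and Csn3 at -0.12.

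**Figure D1:**
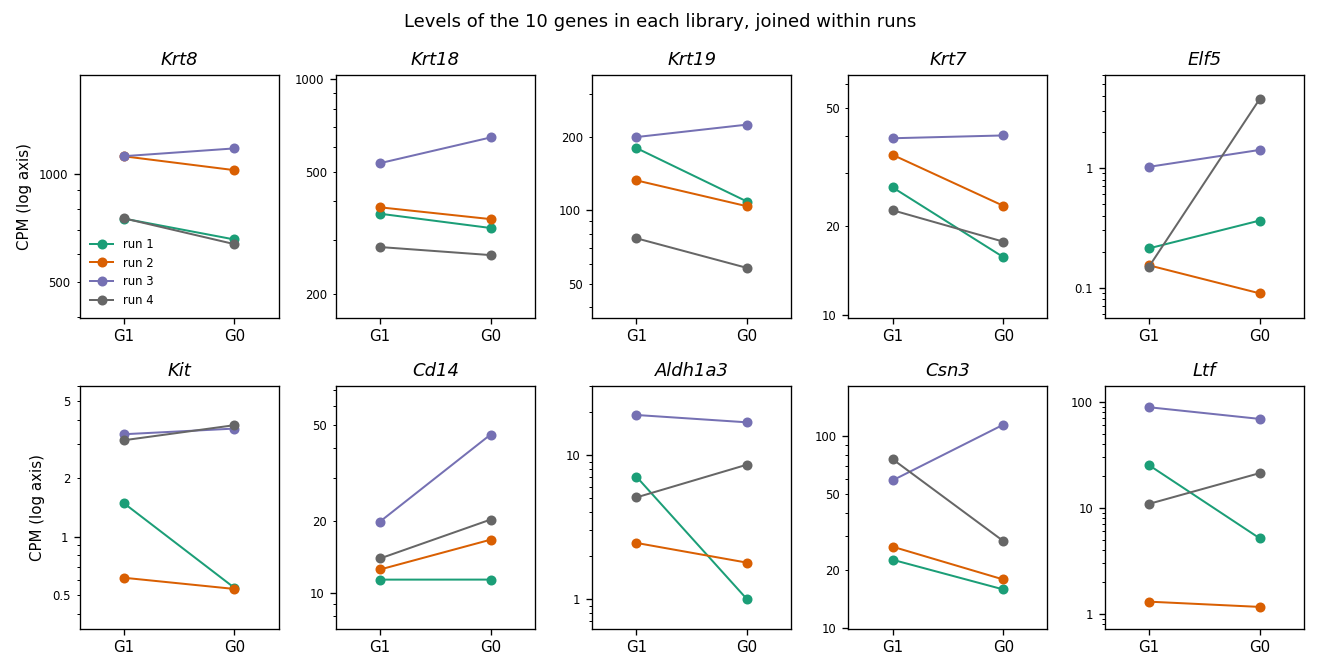
Level of each of the 10 genes in CPM (log axis) in the 4 G1 and the 4 G0 libraries, with points of the same run joined. The phases overlap for every gene, and run 3 holds the highest library of 8 of the 10.

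The 4 luminal keratins had counts in every basal library. Each had the higher value in G1 in runs 1, 2 and 4 and the lower value in run 3. Krt8, the type II keratin of simple epithelia, had 752, 1119, 1119.6 and 753 CPM in the G1 libraries of runs 1 to 4, against 658, 1024, 1177 and 639 CPM in the G0 libraries. Runs 2 and 3 were high and runs 1 and 4 low in both phases. Its mean was 936 ± 212 CPM in G1 and 874 ± 269 CPM in G0 (SD, n = 4 each), a log2 fold change of 0.10 ± 0.25 (edgeR, SE, adjusted p = 0.9999). Blocking on the run gave 0.12 ± 0.10 (edgeR, adjusted p = 0.696).

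Krt18, the type I partner of Krt8, had 365, 383, 533 and 284 CPM in G1 libraries, against 328, 350.4, 647 and 267 CPM in G0 libraries. Run 3 was the highest run in both phases. The log2 fold change was -0.03 ± 0.29 (edgeR, adjusted p = 0.9999), and without the G0 library of run 3 it was 0.31. Blocking on the run gave 0.02 ± 0.11 (edgeR, adjusted p = 0.963).

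Krt19, a small type I keratin with almost no tail domain, had 179.8, 133, 199 and 76.8 CPM in G1 libraries, against 109, 104, 224 and 58.1 CPM in G0 libraries. Run 4 was the lowest in both phases. The G1 over G0 value was 0.25 ± 0.40 on the log2 scale (edgeR, adjusted p = 0.9999). It was 0.71 without the G0 library of run 3 and 0.02 without the G0 library of run 4. With the run as a block the change was 0.33 (edgeR, adjusted p = 0.274), and it was 0.49 without run 3 (adjusted p = 0.0531) and 0.19 without run 1 (adjusted p = 0.707).

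Krt7, a type II keratin of ducts and glands, was the lowest of the keratin members, with 26.9, 34.7, 39.4 and 22.6 CPM in G1 libraries, against 15.7, 23.4, 40.3 and 17.7 CPM in G0 libraries. Only in run 3 was the G0 library the higher of the pair. Its log2 fold change was 0.34 ± 0.30 (edgeR, adjusted p = 0.9999), and 0.71 without the G0 library of run 3. Blocking on the run gave 0.41 ± 0.16 (edgeR, adjusted p = 0.261). The blocked value was 0.57 without run 3 (adjusted p = 0.115) and 0.29 without run 1 (adjusted p = 0.603).

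**Figure D2:**
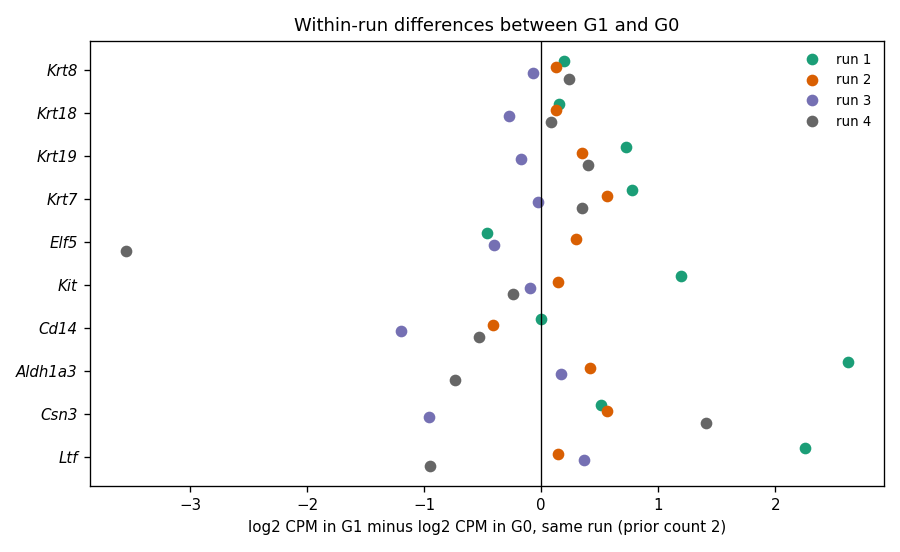
Difference in log2 CPM between the G1 and the G0 library of the same run (prior count of 2) for each gene, with 1 point per run. The 4 keratins lie to the right of 0 in runs 1, 2 and 4 and to the left in run 3, while Aldh1a3 and Ltf reach 2.62 and 2.25 in run 1 and lie below 0 in run 4.

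Of the 9 tested members, 1 kept a single sign in all 4 runs, against 20.8% of all tested genes (11.3% higher and 9.46% lower). Phases that did not overlap were seen for 0 of the 10, against 2% of all tested genes (1.17% lower). The member with a single sign was Cd14, whose run 1 value was below 0 by less than 0.01. The median log2 fold change of the 9 was 0.10, beside -0.0007 for all tested genes, and it was 0.71 without the G0 library of run 3.

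Set against the basal keratins of the same library, the luminal pair showed no common direction. Counts of Krt8 and Krt18 together, divided by those of Krt5 and Krt14, were 0.114, 0.153, 0.144 and 0.110 in the G1 libraries of runs 1 to 4, against 0.0977, 0.124, 0.181 and 0.112 in the G0 libraries. The ratio was higher in G1 in runs 1 and 2, lower in run 3 and nearly level in run 4. On the log2 scale the G1 minus G0 differences were 0.22, 0.30, -0.34 and -0.02, with a mean of 0.04 ± 0.29 (SD over 4 runs). This ratio is a description without a test, and it does not depend on library size. In bulk RNA, a change in the share of luminal cells and a change in luminal RNA per cell cannot be told apart. Which cells of the sort made the Krt8 and Krt18 transcripts was not tested.

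**Figure D3:**
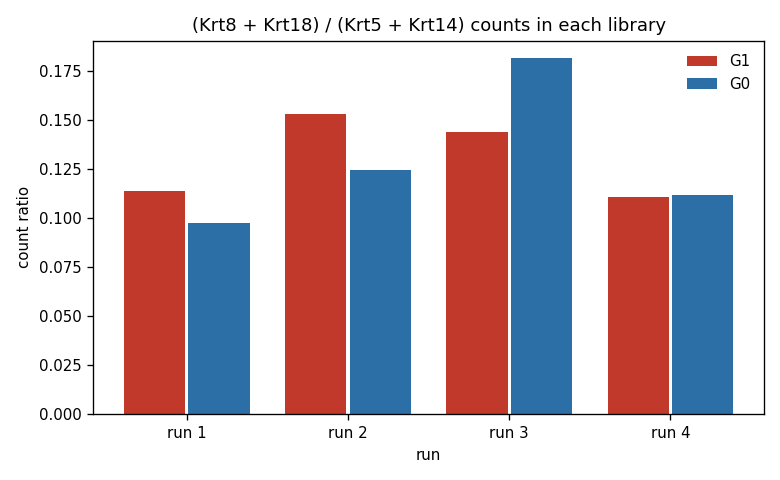
Counts of Krt8 plus Krt18 divided by counts of Krt5 plus Krt14 in each library, with G1 left of G0 in each run. The ratio lies between 0.0977 and 0.181, and the highest bar is the G0 library of run 3.

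The ratio between the keratin partners differed by run more than by phase. Krt8 counts were 2.06, 2.92, 2.10 and 2.65 times those of Krt18 in the G1 libraries, against 2.01, 2.92, 1.82 and 2.39 times in the G0 libraries. Within a run the ratio was higher in G1 in all 4 runs, by 0.04, 0.0003, 0.21 and 0.15 on the log2 scale, while run 2 stood above runs 1 and 3 in both phases. Per kilobase of the longest annotated transcript, Krt8 was 1.34 to 2.15 times as abundant as Krt18 over the 8 libraries.

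Among all keratins, Krt8 and Krt18 ranked just under the main basal chains. The table held 55 genes with keratin symbols, of which 23 were tested, and both numbers include the pseudogene Krt8-ps. A mean of at least 10 CPM was reached by 13, without Krt8-ps. Per kilobase of the longest transcript, mean levels were 4791 CPM for Krt14, 3575 for Krt17 and 839 for Krt5. They were 462 for Krt8, 275 for Krt18, 199 for Krt15, 85.9 for Krt19 and 6.73 for Krt7. The library ranges of the neighbours Krt5 and Krt8 did not overlap. Those of Krt8 and Krt18 did, as did those of Krt18 and Krt15 and of Krt15 and Krt19. For Krt7 the longest annotated transcript, at 4094 bases, is longer than those of the other luminal keratins, which lowers its value per length. The remaining keratins above the limit averaged 52.1 CPM per kilobase for Krt42, 27.2 for Krt16, 25.9 for Krt23, 10.2 for Krt80 and 6.33 for Krt10. Of the tested keratins edgeR called 0 without the run as a block and 1 with it, Krt23 (log2 fold change 0.76 ± 0.15, adjusted p = 0.00789).

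**Figure D4:**
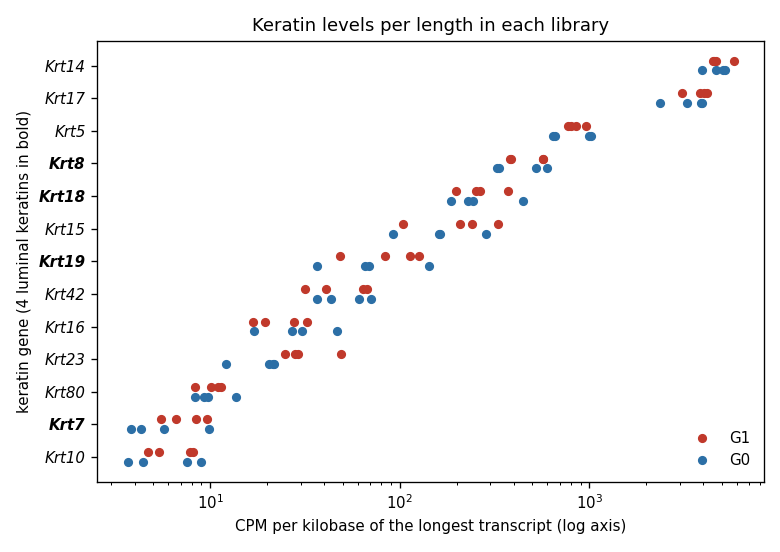
CPM per kilobase of the longest transcript (log axis) for the 13 keratins with a mean of at least 10 CPM, with 1 point per library and G1 above G0 for each gene. Krt8 and Krt18, in bold, follow Krt14, Krt17 and Krt5, and Krt7 lies near the lower end.

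The progenitor regulators Elf5 and Kit had few counts. Elf5, the ETS transcription factor of the alveolar lineage, had 3, 2, 10 and 1 counts in the G1 libraries of runs 1 to 4, against 4, 1, 20 and 21 counts in the G0 libraries. That is 62 counts in all, and 41 of them lay in the G0 libraries of runs 3 and 4. In run 4, 39094 genes were detected in the G0 library, where no other library exceeded 26614, and Krt81, Krt82 and Krt72 showed 9, 7 and 7 counts in it and 0 elsewhere. Its part in the Elf5 count was not tested. With so few counts no fold change is given. Elf5 (ENSMUSG00000027186) lies on chromosome 2 from 103411688 to 103450989.

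Kit, the receptor for stem cell factor (chromosome 5, from 75574916 to 75656722), had 1.49, 0.613, 3.37 and 3.14 CPM in G1 libraries, against 0.544, 0.537, 3.60 and 3.75 CPM in G0 libraries, from 6 to 51 counts a library. Runs 3 and 4 stood above runs 1 and 2 in both phases. Its log2 fold change was 0.03 ± 0.75 (edgeR, adjusted p = 0.9999). Kit is also a receptor of mast cells. Of 7 mast cell markers the sum was at most 1.84 CPM in G1 libraries, and 0.907, 3.58, 1.91 and 16.3 CPM in the G0 libraries of runs 1 to 4. Mast cell carboxypeptidase, Cpa3, was at 0 in all 4 G1 libraries and in the G0 libraries of runs 1 and 2, while Hdc, Cma1, Tpsb2 and Mcpt4 each had counts in at least 1 G1 library. All but Fcer1a of the 7 had counts in the G0 library of run 4, the library with counts on 39094 genes. Their part in the Kit level was not tested.

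Cd14, the co-receptor for bacterial lipopolysaccharide (chromosome 18, from 36725067 to 36726798), had 11.3, 12.5, 19.8 and 13.9 CPM in G1 libraries, against 11.3, 16.6, 45.7 and 20.2 CPM in G0 libraries. Run 1 was level, and G1 was the lower phase in runs 2, 3 and 4. On the log2 scale the change was -0.71 ± 0.39 (edgeR, adjusted p = 0.9999), and -0.15 without the G0 library of run 3. With the run as a block it was -0.56 ± 0.19 (edgeR, adjusted p = 0.180), with -0.73 when run 1 was also left out (adjusted p = 0.0522) and -0.32 when run 3 was (adjusted p = 0.622). Cd14 is made by macrophages too. The 10 macrophage markers summed to 30.7, 27.1, 27.3 and 64.7 CPM in G1 libraries, against 28.4, 30.2, 58.9 and 82.5 CPM in G0 libraries, with the fewest detected, 6 of 10, in the G1 libraries of runs 2 and 3 and the G0 library of run 1. Their sum was lower in G1 in runs 2, 3 and 4, the runs in which Cd14 was lower. Their part in the Cd14 level was not tested.

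Aldh1a3 (chromosome 7, from 66390890 to 66427517) encodes a retinaldehyde dehydrogenase, which makes retinoic acid. It had 7.09, 2.45, 19.0 and 5.08 CPM in G1 libraries, against 0.998, 1.79, 16.9 and 8.58 CPM in G0 libraries. The largest gap within a run was in run 1, at 100 counts in G1 and 11 in G0, and run 4 went the other way. For Aldh1a3 the log2 fold change was 0.25 ± 0.87 (edgeR, adjusted p = 0.9999).

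Ltf, the iron-binding defence protein lactoferrin (chromosome 9, from 111019271 to 111042767), had the widest spread of the tested members. It stood at 25.3, 1.30, 89.0 and 10.9 CPM in the G1 libraries of runs 1 to 4, against 5.17, 1.16, 69.1 and 21.3 CPM in the G0 libraries. Run 3 was highest and run 2 lowest in both phases, and the means of these runs differed 64.1-fold. Run 1 was 4.89-fold higher in G1, and in run 4 the G1 level was 0.513 times the G0 level. The G1 over G0 log2 change was 0.38 ± 1.37 (edgeR, adjusted p = 0.9999), and -0.95 without the G1 library of run 3 or 1.86 without the G0 library of run 3. Neutrophils also carry lactoferrin, and 8 neutrophil markers together summed to at most 3.57 CPM in G1 libraries and 5.72 CPM in G0 libraries. The neutrophil sum in the G1 library of run 3, where Ltf was highest, was the largest of the G1 libraries, and S100a8 had 17 counts there against 0 to 4 in the other libraries. In that library 5 of the 8 markers were at 0. Among G0 libraries the 8 markers summed to 5.72 CPM in run 4 and 4.17 CPM in run 3, where Ltf was highest in G0. Their part in the Ltf level was not tested.

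Csn3, the milk protein kappa-casein (chromosome 5, from 87925579 to 87932665), followed another order. It had 22.7, 26.5, 58.9 and 75.9 CPM in G1 libraries, against 15.9, 17.9, 115 and 28.4 CPM in G0 libraries. G1 was higher in runs 1, 2 and 4, by 2.67-fold in run 4, and lower in run 3. The log2 fold change was 0.04 ± 0.70 (edgeR, adjusted p = 0.9999). With the run as a block and run 3 left out, Csn3 was called higher in G1 (0.83, adjusted p = 0.00277), and with run 4 left out instead the value was -0.01. The share of all tested genes called without run 3 is not given here.

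Most members differed between runs. In the edgeR fit with both phase and run, 7 of the 9 tested members differed between the 4 runs at an adjusted p of 0.05, against 35.6% of all tested genes. This test was added after the data were seen. It called the 4 keratins, with adjusted p from 1.71e-06 for Krt19 to 0.00207 for Krt7, and Kit (0.00632), Cd14 (0.000467) and Aldh1a3 (0.0143). Csn3 and Ltf, with adjusted p of 0.119 and 0.0595, did not pass. Without run 3, 4 of 9 members differed between runs, against 14.6% of all genes. Without run 2, 5 of 10 did, against 35%.

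**Figure D5:**
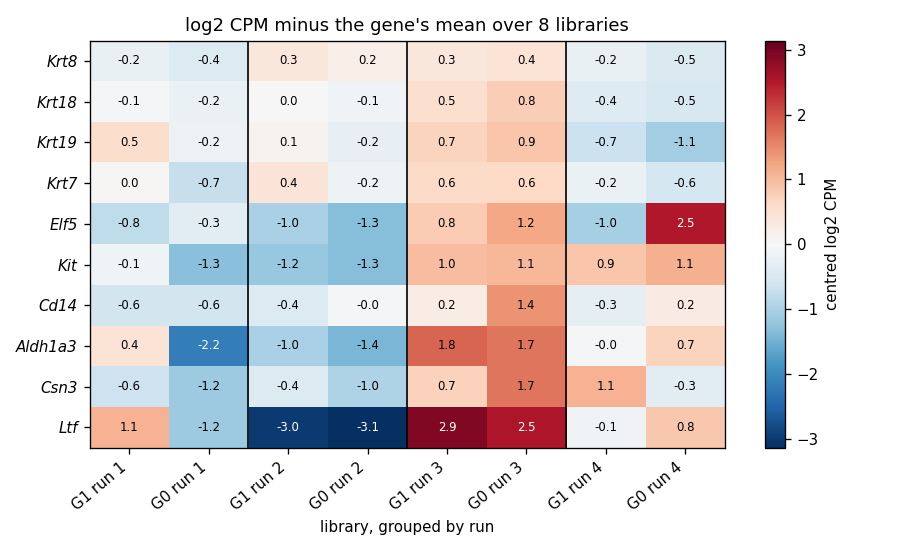
log2 CPM of each gene minus its mean over the 8 libraries, with libraries grouped by run and G1 left of G0. Run 3 is above the mean for every gene in both phases, and run 2 is above it for Krt8 and furthest below it for Ltf.

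The keratins and the progenitor genes did not rank the runs alike. Krt8 averaged 1072 CPM over both libraries of run 2 and 1148 CPM over those of run 3, while Ltf averaged 1.23 and 79.1 CPM in the same runs. The highest-to-lowest ratio of run means was 1.65 for Krt8, 2.14 for Krt18, 3.14 for Krt19 and 1.98 for Krt7. It was 2.89 for Cd14, 4.51 for Csn3, 6.06 for Kit, 8.46 for Aldh1a3 and 64.1 for Ltf. Over all tested genes the median of this ratio was 1.68, with a 90th percentile of 3.62.

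Other luminal progenitor genes were read from a separate list of 14. Of 11 tested, 0 were called higher and 0 lower with or without the block, 7 had a positive fold change and the median was 0.09. The most abundant were Lcn2, the siderophore-binding protein lipocalin 2, at 2579 ± 349 CPM in G1 and 2246 ± 250.3 CPM in G0, and Mfge8, a milk fat globule protein, at 888 ± 143 CPM in G1 and 662 ± 65.4 CPM in G0 (SD, n = 4 each). For Mfge8 the phases did not overlap, at a log2 fold change of 0.42 ± 0.18 (edgeR, adjusted p = 0.9999, or 0.0740 when the run is a block). Plet1, a surface protein of progenitor cells, had 291 ± 37.5 CPM in G1 and 399 ± 155 CPM in G0. Wfdc18, a secreted protein with a whey acidic protein domain, had 30.9, 6.59, 129.9 and 18.7 CPM in G1 libraries, against 14.7, 5.19, 95.7 and 20.5 CPM in G0 libraries. Like Ltf it was highest in run 3 and lowest in run 2 in both phases, and higher in G1 in run 1 but not in run 4.

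Most milk genes other than Csn3 had few counts. The caseins Csn1s1 and Csn2, whey acidic protein Wap and alpha-lactalbumin Lalba had 18, 17, 4 and 17 counts over all 8 libraries. Of the 8 genes of this list 2 were tested, Xdh, the xanthine dehydrogenase of milk fat secretion, at 72.9 ± 24.2 CPM in G1 and 85.9 ± 31.1 CPM in G0, and Btn1a1, at 1.41 ± 0.742 CPM in G1 and 1.95 ± 1.91 CPM in G0. Neither was called, and both log2 fold changes were below 0 (median -0.35).

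Partners of the members were measured in the same way. In the prolactin and STAT5 list, which acts with ELF5 in alveolar cells, 0 of 10 tested genes were called and the median was -0.07. Its most abundant genes, Nfib, Gata3 and Socs2, averaged 426, 190.0 and 156 CPM in G1, against 432, 208 and 152 CPM in G0. The prolactin receptor Prlr had 6.31, 2.07, 14.4 and 8.66 CPM in G1 libraries, against 1.45, 1.25, 37.9 and 8.75 CPM in G0 libraries, and run 3 was its highest run in both phases. Stat5a and Stat5b, which carry the prolactin signal, averaged 110.4 and 48.1 CPM in G1, against 104 and 44.8 CPM in G0.

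Kitl, the ligand of KIT, was far above its receptor, at 165 ± 31.3 CPM in G1 and 159 ± 53.0 CPM in G0 (28.7 CPM per kilobase against 0.407 for Kit over all libraries). Of 9 tested genes in the KIT list 0 were called, with a median of -0.25. In the CD14 and TLR4 list 0 of 9 tested genes were called, with a median of -0.06. Tlr4, the receptor that CD14 serves, had 2.07 ± 1.80 CPM in G1 and 3.86 ± 1.09 CPM in G0, and its cofactor Ly96 5.27 ± 1.72 CPM in G1 and 5.34 ± 3.65 CPM in G0. The adaptor Myd88 averaged 226 CPM in G1 and 214 CPM in G0, and Tlr2 126 CPM in G1 and 137 CPM in G0.

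In the retinoic acid list 0 of 10 tested genes were called without the run as a block, with a median of -0.01. Aldh1a1, a relative of Aldh1a3, had 11.2 ± 3.77 CPM in G1 and 7.09 ± 1.49 CPM in G0 (log2 fold change 0.65 ± 0.30), and Aldh1a2 had 10 counts in all.

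Genes of the other luminal branch and of epithelia in general were also read. Of 10 hormone-sensing luminal genes 9 had a negative fold change, the median was -0.51 and 0 were called. With the block 1 was called lower, Ly6a, at -0.94 ± 0.17 (edgeR, adjusted p = 0.00487). All 8 endothelial genes read below were called lower with the block too, and the part of other cells in the Ly6a level was not tested. Summed levels of this list were 449, 578, 657 and 604 CPM in G1 libraries, against 503, 505, 879.9 and 700.4 CPM in G0 libraries, with run 3 highest in both phases. Most of the sum was Cd24a, which averaged 415 CPM in G1 and 434 CPM in G0. Cd24a, Areg, Cited1 and Prom1 were highest in run 3 in both phases, and the other genes of the list were not. Among G1 libraries Esr1 was lowest in run 3, at 6.13 CPM. Of 14 simple epithelial genes 0 were called with or without the block, with a median of -0.04. Epcam, the epithelial adhesion molecule, averaged 968.4 ± 124.8 CPM in G1 and 1044 ± 142 CPM in G0.

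Of 10 basal genes 0 were called without the block, with a median of 0.04, and 1 with it, Acta2, smooth muscle actin, at 0.63 ± 0.10 (edgeR, adjusted p = 0.000642). Krt5, the basal type II keratin, averaged 1857 ± 179.6 CPM in G1 and 1829 ± 453 CPM in G0, and Krt14 8269.9 ± 1029.6 CPM in G1 and 7999 ± 986 CPM in G0.

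By likeness of profile, the 5 nearest of 10038 other genes to the mean of the 4 keratins were Cystm1, Alkbh4, Rfxap, Txndc15 and Gfer. Their centred log2 CPM differed from that mean by a root mean square of 0.133 to 0.158 over 8 libraries, where the keratin profile itself had an SD of 0.464. For Elf5, Kit and Aldh1a3 together the nearest were Gm42418, Midn, Ccl7, Nr4a3 and Gm2830, at 0.513 to 0.551 against a profile SD of 1.19. This profile rests in part on few counts, since Elf5 did not pass the filter and had 1 to 21 counts a library. Its largest centred value, 2.5, came from the G0 library of run 4.

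Markers of other cell types were read beside these genes. The 8 endothelial genes summed to 18.8, 47.1, 86.0 and 64.4 CPM in G1 libraries, against 119, 213, 210.4 and 222 CPM in G0 libraries, and with the block all 8 were called lower, against 0 without it (median -1.84). The 6 fibroblast genes summed to 242, 319, 601 and 442 CPM in G1 libraries, against 206, 294, 874 and 299 CPM in G0 libraries, with 3 called lower with the block and 0 without it (median -0.69). Their sum was higher in G1 in runs 1, 2 and 4, although 5 of the 6 had a negative log2 fold change and 1 a positive one, of 0.52. The sum therefore does not follow the direction of most of these genes. Run 3, which had the highest run mean for 9 of the 10 members, was also the highest for the fibroblast and adipocyte sums in both phases. The macrophage sum was highest in run 4 in both phases, and the endothelial sum in run 3 in G1 and in run 4 in G0. The 6 adipocyte genes summed to 31.3, 60.7, 212 and 107 CPM in G1 libraries, against 178, 152, 438 and 222 CPM in G0 libraries, with 4 tested, 1 called lower with the block and 0 without it (median -1.10). All endothelial and fibroblast markers were tested, so none was at 0 throughout, and the part of these cells in the members' levels was not tested. Of the 10 macrophage markers 4 were tested, with 0 called with or without the block and a median of -0.34, and none of the neutrophil and mast cell markers passed the filter.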

How the data were processed

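RNA of sorted mouse mammary basal cells was sequenced as stranded, poly(A)-selected paired-end libraries, per the labels' protocols. The authors deposited raw counts per Ensembl gene, 1 column per library and no unused column. Trimmomatic 0.35 and STAR 2.5.2a on mm10 are named in the submitters' processing notes. The sources used here do not name the counting program, its strand setting or the annotation. Symbols, positions and transcript lengths are those of GENCODE M21 (GRCm38, the mm10 assembly).

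Libraries were grouped by phase, 4 each. No library pair within a phase was a copy (chi-square per degree of freedom 24.0 to 109.7). Genes were filtered with filterByExpr, leaving 15192, scaled by TMM and tested G1 over G0 with edgeR 4.0.16 in R 4.3.3 (quasi-likelihood, robust, two-sided, phase alone, Benjamini-Hochberg). SE was computed as |log2 fold change| / sqrt(F). Per-run log2 values use a prior count of 2. Alternatives used limma 3.58.1, DESeq2 1.42.0, RLE factors, other filters, left-out libraries and the run as a block. The run numbers pair the libraries: deviations from the phase mean correlated at 0.437 to 0.668 within runs and at most 0.0971 between them.

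The members, the gene lists and the naming rule were chosen with earlier results of these data known. The rule takes the members, the called genes and 3 most abundant genes of each list, some partners, the 5 genes nearest in profile and keratins of at least 10 CPM; not all are printed, and 1 result is not reported here. Wfdc18, Csn1s1, Csn2, Wap, Lalba, Trp63, Cpa3, Mcpt4, Fcer1a, S100a8, Krt72, Krt81, Krt82, Gm36026, Gm10800 and Krt8-ps were named after their values were seen.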

Additional observations from a re-analysis of the deposited data

Results flagged for a closer look

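Of the 20 sets of 4 libraries (10 genes in 2 phases), 2 held a library far from the other 3, where chance gives about 1 in 20. In the G1 library of run 3, Elf5 stood at 1.02 CPM, from 10 counts, and the next G1 library at 0.213 CPM. In the G0 library of run 3, Csn3 stood at 115 CPM and the next G0 library at 28.4 CPM.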

How the results depend on the processing

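Krt19, Krt7 and Cd14 kept their direction under 18 alternatives each, at 0.02 to 0.71, 0.19 to 0.71 and -0.94 to -0.15 on the log2 scale. Krt18, at -0.03, became 0.012 with no filter on low counts, 0.027 with limma-voom and 0.022 when the run was a replicate block. When 1 library was left out, Krt8 spanned -0.026 to 0.28, Krt18 -0.21 to 0.31, Kit -0.29 to 0.49, Aldh1a3 -0.53 to 1.23, Csn3 -0.31 to 1.16 and Ltf -0.95 to 1.86, and the median of the members -0.21 to 0.71. With the run as a replicate block and 1 run left out, Krt18 spanned -0.02 to 0.12, Kit -0.081 to 0.43, Aldh1a3 -0.039 to 0.94, Csn3 -0.015 to 0.83 and Ltf -0.14 to 1.04. Members called stayed at 0 in 17 of 18 alternatives and became 1, Csn3, in the blocked fit without run 3. The cause was not tested, and the share of all tested genes called in that fit is not given here. Over the other gene lists 0 genes were called; the block gave 2 higher and 13 lower, and 1 to 3 higher and 10 to 17 lower with 1 run left out, while 7 were lower with no filter and 5 with DESeq2. Members that differed between runs were 8 of 9 without run 1, 5 of 10 without run 2, 4 of 9 without run 3 and 9 of 9 without run 4. The shares of all tested genes in these fits were 27.9%, 35%, 14.6% and 34.6%. The ratio of luminal to basal keratins had a mean log2 difference between -0.04 and 0.17, where the SD over all 4 runs was 0.29. The value of 0.17 was without run 3, whose own difference was -0.34. Few counts limit Elf5 and Kit, and Kit has no value when at least 10 counts are required in all libraries.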
